A study of Homo sapiens with 12 samples.

Results

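Gene expression after 48 h with methotrexate was compared with that after 24 h in the established human colon adenocarcinoma line HT29, which the submitters call sensitive to the drug. The comparison takes the 3 arrays titled MTX-48h and the 3 arrays titled MTX-24h, chosen by their titles, which are 6 of the 12 arrays of the time course. Both groups were treated with 70 nM methotrexate, and they differ in the time of exposure. The other 6 arrays, 3 of a control group taken as 0 h and 3 after 8 h at the same dose, entered the estimate of the spread, and the control gives the reference level. All groups are cells of the same line, with no genetic change named, seeded in plates and grown in F12 medium with serum, and the titles call the replicates biological. If replicates shared a culture, the p-values below measure only the spread between these samples. Arrays of untreated cells at 24 or 48 h did not enter the comparison, so longer treatment and longer time in culture cannot be told apart in any difference below. In a bulk sample, fewer cells of a type and less RNA per cell cannot be told apart either.

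Methotrexate is a folate analogue that deprives cells of the reduced folates that carry one-carbon units into thymidylate, purines and methionine. Cells short of these precursors slow or stall in S phase. Amino acid and redox balance are tied to the same pathway, because serine and glycine feed the folate cycle, and the cycle supplies glycine and NADPH. The later hours of exposure are the time when such cells adapt, arrest, differentiate or die.

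The deposited values are log2 ratios to the median of the control arrays, so a value of 0 is the control level and a positive value lies above it. In what follows a level means this log2 ratio, and a difference means the mean at 48 h minus the mean at 24 h, given with limma's standard error (SE). Differences were tested with limma over 18377 genes, and a gene was called higher or lower at a Benjamini-Hochberg adjusted p under 0.05. Because absolute levels were removed by the centring, markers of the cell line could not be read as present or absent. Of 14 colon epithelial markers, 12 passed the test in neither direction, EPCAM, KRT20, CDX2 and CDH17 among them. TSPAN8 was lower at 48 h by 0.34 and VIL1 by 0.27, and the call for VIL1 was lost when any 1 of the 6 arrays was left out, with adjusted p between 0.0613 and 0.126. The markers of leukocytes and endothelium had 2 of 17 members called higher (11.8%), CD4 at 0.52 and CD68 at 0.23. PTPRC, CD3D and PECAM1 did not pass. Of 18 fibroblast markers, ACTA2 was called at 0.35 and TAGLN at -0.40 (5.56% each way). Of the epithelial markers, 14.3% were called lower. Over all genes 5.26% were called higher and 4.86% lower, 10.1% in all, so the fibroblast shares were near those over all genes. For CD68 the call was lost on leaving out 48 h replicate 1 or 3 or any of the 24 h arrays, with adjusted p from 0.0633 to 0.137.

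The third 48 h array stood apart from its group. The root mean square difference over genes was 0.208 between 48 h replicates 1 and 3 and 0.184 between replicates 2 and 3, against 0.0941 between replicates 1 and 2. The 24 h arrays differed by 0.0951 to 0.143. Between replicates, the SD of the median gene was 0.066 at 24 h and 0.0869 at 48 h. Without 48 h replicate 3, 1201 genes were called higher and 948 lower. Where leaving it out moved a main count of 3 or more in a gene group by over 1.5 times, both counts are given below. Smaller counts also moved, among them stem and Wnt genes from 0 to 2 lower and DNA repair genes from 1 to 2 higher, and not all are given. Of the 343 members of the gene lists below that were called, 199 kept the call whichever of the 6 arrays was left out, and most of those given below that did not are named with their range of adjusted p.

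Across all genes, the late phase was broad and shallow. Of the 18377 genes, 966 (5.26%) were higher at 48 h than at 24 h and 894 (4.86%) were lower, 1860 (10.1%) in all. At an unadjusted p under 0.05 there were 4082 genes (22.2%). The difference over all genes had a median of -0.0067, with its 5th percentile at -0.231 and its 95th at 0.249, and the called genes had a median absolute difference of 0.309, with an SE of 0.066 for the median gene. Few genes moved far, since 103 (0.56%) were both called and at least 1.5-fold higher and 33 (0.18%) at least 1.5-fold lower, and past 2-fold there were 7 (0.0381%) higher and 6 (0.0326%) lower. The 3 levels at 48 h all lay above the 3 levels at 24 h for 2111 genes (11.5%) and all below them for 2308 (12.6%). The counts dropped to 567 higher and 537 lower without 24 h replicate 1, and to 603 and 500 without 24 h replicate 3. Probe sets naming several genes gave 80 higher and 44 lower of 1752 (4.57% and 2.51%), and those with no gene named gave 59 and 55 of 7807 (0.756% and 0.704%). For scale, 24 h against control gave 1597 genes higher (8.69%) and 1473 lower (8.02%), and 48 h against control 2388 (13%) and 2261 (12.3%). These comparisons share arrays with each other and with 48 h against 24 h, so their counts are not independent. Counts against control in the gene lists below are to be read beside these shares.

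**Figure D1:**
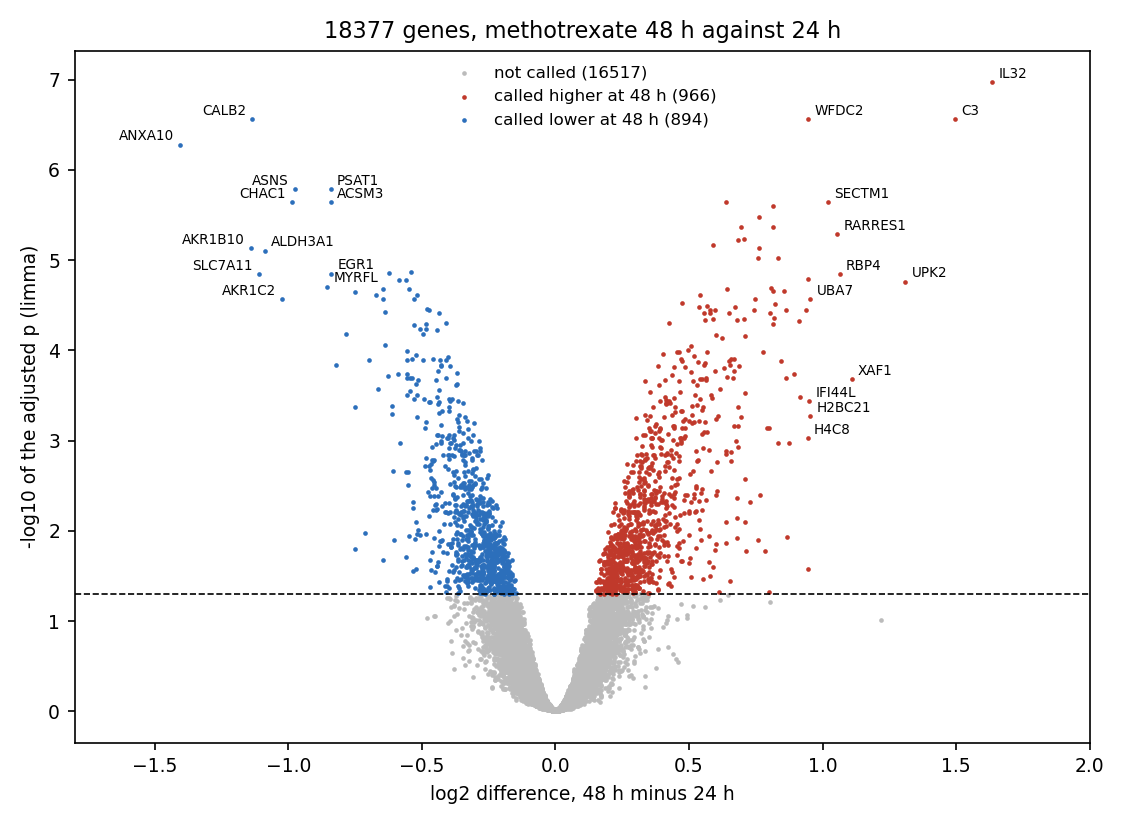
Difference between 48 h and 24 h (log2, horizontal axis) against the adjusted p (on a -log10 axis, vertical) for the 18377 genes, with 1 point per gene, coloured where called. The extremes of the 966 genes called higher and 894 called lower are IL32 at 1.63 and ANXA10 at -1.405. More genes lie far out on the higher side, with 103 at least 1.5-fold higher and 33 at least 1.5-fold lower.

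IL32 and C3, which encode secreted proteins of immune defence, rose most. IL32, a cytokine made by epithelial and immune cells, had levels of 0.44, 0.38 and 0.39 on the 24 h arrays and 2.01, 2.03 and 2.06 on the 48 h arrays. Its groups lay far apart, with hardly any spread within either, and it was 3.1-fold higher at 48 h (difference 1.63, SE 0.07, adjusted p = 1.07e-07). C3, the central component of complement, read 0.49, 0.58 and 0.59 at 24 h and 2.12, 2.06 and 1.97 at 48 h, a difference of 1.496 (SE 0.07, adjusted p = 2.72e-07). Both were already above control at 24 h and moved further from it. UPK2, a uroplakin of the urothelial surface, rose by 1.31 (SE 0.11), from levels of 0.31 to 0.53 at 24 h to 1.58 to 1.81 at 48 h. RBP4, the plasma carrier of retinol, read 0.37, 0.43 and 0.31 at 24 h and 1.63, 1.42 and 1.25 at 48 h, and RARRES1, first described as a retinoid-induced gene, read -0.25, -0.27 and -0.22 at 24 h and 0.88, 0.81 and 0.74 at 48 h. RARRES1 thus went from below control to above it. SECTM1, a membrane and secreted protein that can bind CD7, rose by 1.02 (SE 0.07), and WFDC2, a secreted whey acidic protein family member used as a tumour marker, by 0.95 (SE 0.05). The 48 h levels of WFDC2 were 1.28, 1.21 and 1.33 against 0.32, 0.31 and 0.35 at 24 h. UBA7, the activating enzyme for the ubiquitin-like protein ISG15, stood at -0.07, -0.04 and -0.09 at 24 h and at 1.002, 0.646 and 1.002 at 48 h. XAF1, IFI44L and 2 histone genes, H2BC21 and H4C8, complete the 12 largest rises and are described with their groups.

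ANXA10, AKR1B10 and CALB2 fell most. ANXA10, an annexin found in gastric-type epithelium, read -0.53, -0.53 and -0.68 at 24 h and -1.94, -1.85 and -2.16 at 48 h. It was the gene that fell furthest (difference -1.405, SE 0.08, adjusted p = 5.26e-07), from a level already below control. CALB2, the calcium-binding protein calretinin, read -0.14, -0.22 and -0.13 at 24 h and -1.26, -1.37 and -1.27 at 48 h, so that nearly all of its fall below control lay after 24 h. Its mean on the 8 h arrays was 0.34, so it had also come down between 8 h and 24 h. Also among them were enzymes or transporters of redox and amino acid balance, namely AKR1B10 (-1.14), SLC7A11 (-1.11), ALDH3A1 (-1.09) and AKR1C2 (-1.02). ACSM3, a mitochondrial medium-chain acyl-CoA synthetase, fell by 0.84 (SE 0.06), with 24 h levels of -0.93, -0.81 and -0.92 and 48 h levels of -1.64, -1.73 and -1.83. MYRFL, a relative of the myelin regulatory factor MYRF, stood at 0.01, 0.13 and -0.10 at 24 h and at -0.76, -0.79 and -0.98 at 48 h. EGR1, a growth-factor-induced transcription factor, read -1.12, -0.96 and -1.11 at 24 h and -1.91, -1.99 and -1.81 at 48 h. CHAC1, ASNS and PSAT1 complete the 12. For each of these 24 genes the 3 levels at 48 h all lay on one side of the 3 at 24 h, as the rule for naming them required.

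**Figure D2:**
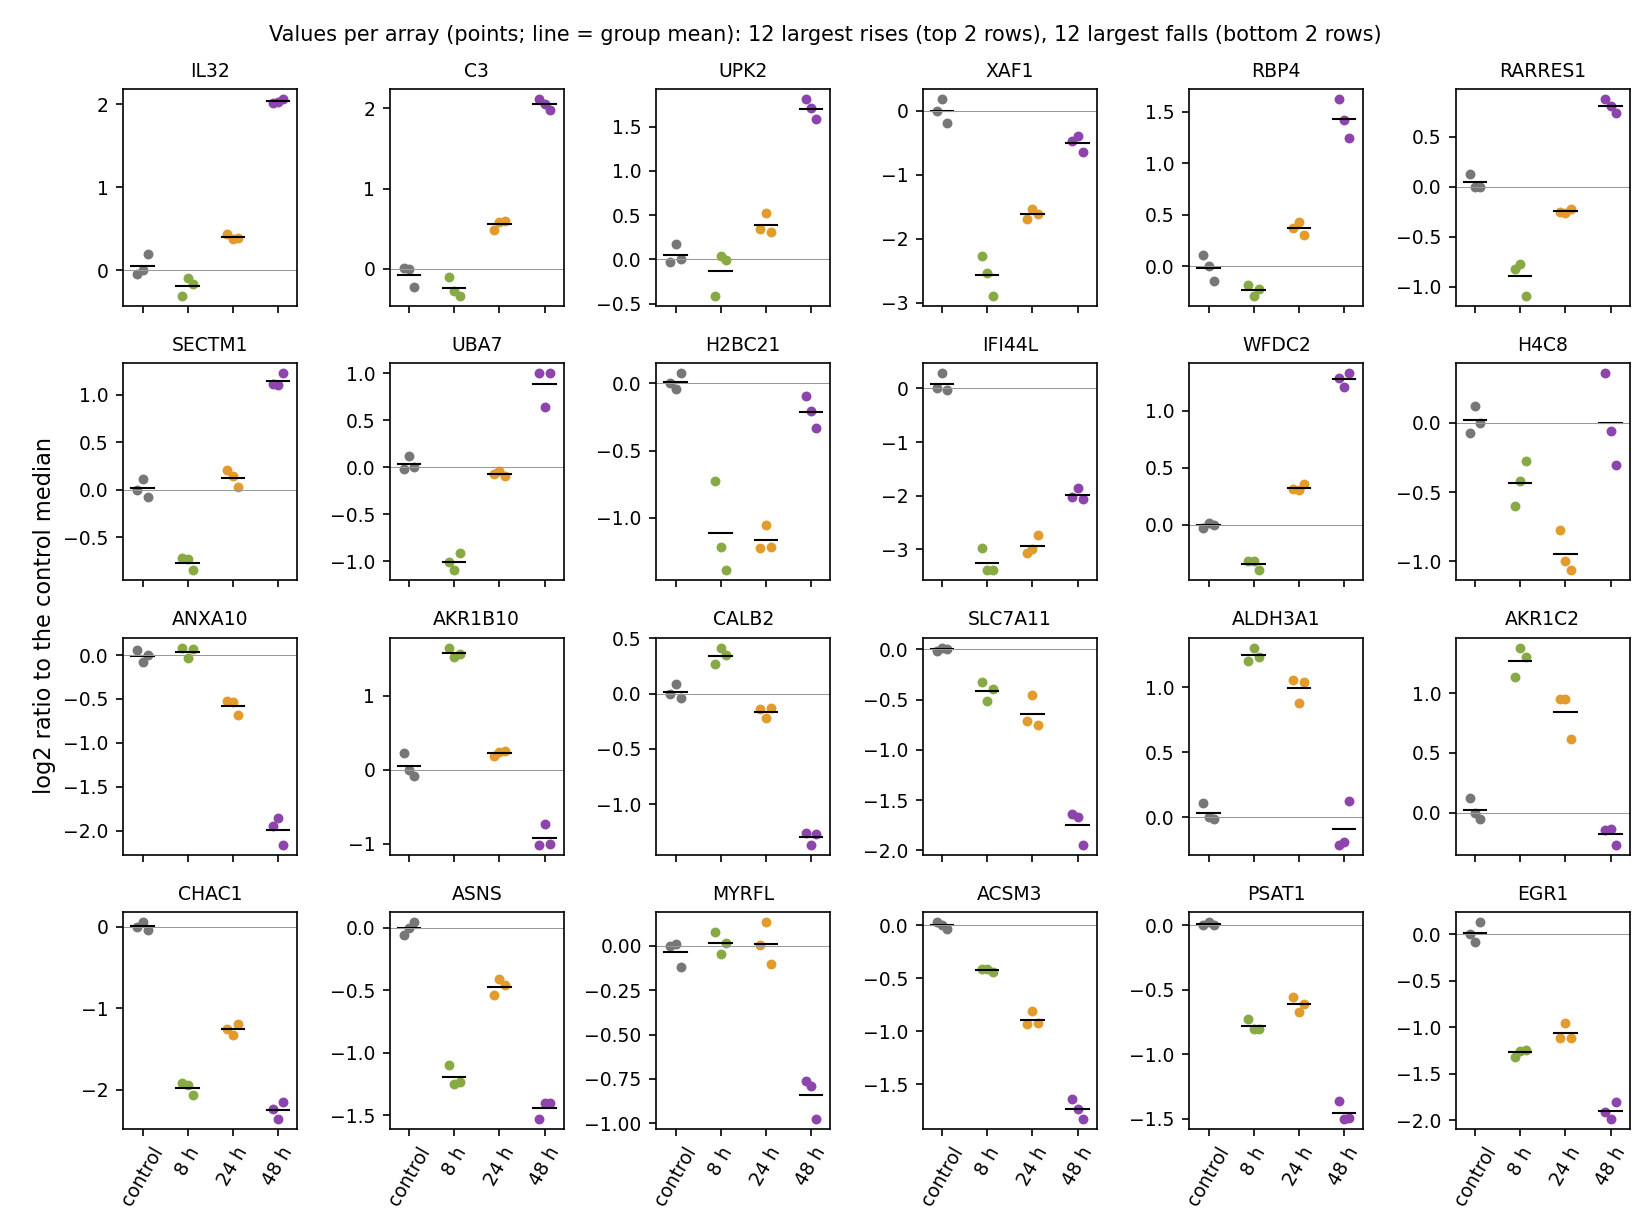
Levels (log2 ratio to the control median, vertical axis) by group (horizontal axis) of the 12 genes with the largest rises and the 12 with the largest falls. Each array is 1 point and each group has a colour. IL32 and C3 sit above 0 at 24 h and near 2 at 48 h, and IFI44L lies near -3 at 24 h and near -2 at 48 h.

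NF-kappaB is a family of transcription factors that sit in the cytoplasm bound to inhibitors such as NFKBIA and, once released, switch on cytokines, chemokines, adhesion molecules and their own inhibitors. Target promoters carry the kappaB element. It was searched for as GGG and TTCC with any 3 bases between them, on both strands, in RefSeq promoters of GRCh38.p14 (250 bases before to 50 after each start), of which 27305 were given and 14210 belonged to tested genes. It was found in 6.47% of all promoters, in 7.11% of those of tested genes, and in 15 of the 32 promoters matched for the list of NF-kappaB targets and cytokines (46.9%). Among the 17 matched promoters of the list members called higher, 7 held it (41.2%). Over all matched genes, those called higher held it in 8.31% and those called lower in 6.93%. A match is a string of letters and says nothing on binding. The 200 bases before the start are shown for IL32, chr16:3065203-3065402 on the plus strand, and for TNFAIP3, chr6:137867059-137867258 on the plus strand, because IL32 had the largest rise and TNFAIP3 encodes the A20 inhibitor of the pathway. TNFAIP3, and IFI6 and CCNB2 below, were picked for printing after their values were seen. Capitals mark the matches, which in TNFAIP3 are on the opposite strand.
IL32: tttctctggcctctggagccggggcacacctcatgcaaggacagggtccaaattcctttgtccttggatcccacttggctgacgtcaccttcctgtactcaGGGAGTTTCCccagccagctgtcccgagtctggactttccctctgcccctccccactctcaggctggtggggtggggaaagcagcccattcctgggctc
TNFAIP3: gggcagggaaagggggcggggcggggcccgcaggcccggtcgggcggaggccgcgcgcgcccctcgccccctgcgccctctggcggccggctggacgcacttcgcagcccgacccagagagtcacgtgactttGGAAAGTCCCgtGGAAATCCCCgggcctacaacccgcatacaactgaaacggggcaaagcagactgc

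Of the 40 measured genes of this list, 20 were higher at 48 h than at 24 h and 0 were lower, with a median difference of 0.21 against -0.0067 over all genes. The share called higher was 50%, against 5.26% of all genes. The median level of the list on each array was 0.07, 0.12 and 0.10 at 24 h and 0.23, 0.28 and 0.29 at 48 h. Leaving out any 1 array left 16 to 22 of them called, and 16 of the 20 kept the call whichever array it was. CCL20, CCL28, LCN2 and SOD2 lost it without 24 h replicate 1 (also without other arrays, adjusted p from 0.0506 to 0.0743). Among inhibitors, NFKBIA stood at -0.09, 0.04 and 0.02 at 24 h and at 0.84, 0.80 and 0.78 at 48 h (difference 0.82, SE 0.06, adjusted p = 4.33e-06). TNFAIP3 read 0.60, 0.40 and 0.51 at 24 h and 1.37, 1.39 and 1.19 at 48 h, a difference of 0.82 (SE 0.07). Both inhibitors had groups that lay well apart, and TNFAIP3 was already above control at 24 h where NFKBIA was at the control level. Of the transcription factors themselves, NFKB2 rose by 0.41, and RELA, RELB, REL and NFKB1 did not pass the test, at 0.09, 0.18, -0.003 and 0.14. Chemokines that rose were CXCL1 (0.58), CCL28 (0.60), CXCL16 (0.52), CX3CL1 (0.50), CXCL10 (0.49) and CCL20 (0.26). Those that did not pass included CXCL2 (0.13), CXCL3 (-0.11), CXCL5 (-0.08) and CXCL8, the chemokine IL-8, with 0.33 (adjusted p = 0.0752). Members of the TNF family of ligands rose as well, TNFSF10 (TRAIL) by 0.55, TNF by 0.45 and TNFSF15 by 0.42. The adhesion molecule ICAM1 rose by 0.67, the urokinase PLAU by 0.56 and its receptor PLAUR by 0.28, and the interleukins IL6, IL1A, IL1B, IL18 and IL33 stayed between -0.06 and 0.05 with none passing. The complement factor CFB, which forms the alternative-pathway convertase with C3, moved across the control level, from -0.32, -0.27 and -0.23 to 0.54, 0.72 and 0.65 (difference 0.91, SE 0.09, adjusted p = 4.78e-05). SOD2 (0.22) and LCN2 (0.20) were the other members called. Against control, 15 members were higher and 7 lower at 24 h (8.69% and 8.02% of all genes). At 48 h 24 were higher and 3 lower (13% and 12.3% of all genes).

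Interferons act through transcription factors, IRF9 among them, that bind the interferon-stimulated response element (ISRE) of antiviral genes, and many of these genes keep a basal level in tumour lines without added interferon. Searched as GAAA, any 2 bases and GAAA on both strands, it was in 3.65% of all promoters, 3.03% of those of tested genes, 28 of 43 (65.1%) matched for the interferon list and 13 of the 21 (61.9%) of its members called higher. The 734 matched genes called higher held it in 5.99% and the 736 called lower in 2.31%. The windows of IFI44L, chr1:78620248-78620447 on the plus strand, and IFI6, chr1:27672193-27672392 on the minus strand, are shown because both genes were far below control at 24 h and rose afterwards. Capitals mark the matches.
IFI44L: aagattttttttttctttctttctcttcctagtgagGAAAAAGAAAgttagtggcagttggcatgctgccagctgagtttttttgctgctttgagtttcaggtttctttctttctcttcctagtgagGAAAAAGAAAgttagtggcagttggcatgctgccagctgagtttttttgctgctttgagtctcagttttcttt
IFI6: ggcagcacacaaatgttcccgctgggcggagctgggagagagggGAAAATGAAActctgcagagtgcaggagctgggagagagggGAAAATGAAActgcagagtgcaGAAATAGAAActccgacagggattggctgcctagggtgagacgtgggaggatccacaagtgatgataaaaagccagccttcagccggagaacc

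Interferon-stimulated genes were below control at 24 h and had risen by 48 h, most of them without reaching it. Of 54 measured, 28 were higher at 48 h than at 24 h (51.9%, against 5.26% of all genes) and 0 were lower, with a median difference of 0.30. The list's median level was -0.91, -0.81 and -0.79 on the 24 h arrays and -0.54, -0.51 and -0.63 on the 48 h arrays. Leaving out any 1 array left 19 to 34 called, and 19 of the 28 kept the call whichever array it was. IFIT2, IFIT3, IFIT5, BST2, DHX58, HERC6, IFI35, PARP14 and SP100 did not, each lost without 24 h replicate 1 and without others (adjusted p from 0.0507 to 0.136). Against control, 49 were lower at 24 h, and at 48 h 44 were lower and 1 was higher. XAF1, a proapoptotic antagonist of XIAP, read -1.70, -1.54 and -1.61 at 24 h and -0.48, -0.40 and -0.64 at 48 h, the largest rise of the list (1.11, SE 0.13, adjusted p = 0.00021). IFI44L read -3.07, -3.0 and -2.74 at 24 h and -2.03, -1.86 and -2.07 at 48 h. It rose by 0.95 (SE 0.12), and its 48 h mean was still at -2.07 from the control mean. IFI6, a mitochondrial antiapoptotic protein, read -1.56, -1.67 and -1.38 at 24 h and -1.08, -0.92 and -0.70 at 48 h. Among the transmembrane restriction factors, IFITM1 rose by 0.92 (SE 0.12) from -2.05, -2.15 and -1.79 to -1.25, -1.14 and -0.86, and IFITM3 by 0.82 (SE 0.08) from -0.93, -0.80 and -0.94 to -0.06, -0.03 and -0.13. IFITM3 was thus within 0.13 of the control level on every 48 h array, and IFITM1 was not. The IFITM genes are close in sequence, and their probe sets may share signal. The dynamin-like MX1 and MX2 rose by 0.60 and 0.71, the oligoadenylate synthetases OAS1, OAS2 and OAS3 by 0.44 to 0.53, and IFIT1, IFIT2, IFIT3 and IFIT5 by 0.29 to 0.44. The transcription factor IRF9 rose by 0.41, and IRF1 (0.12) and IRF7 (0.15) did not pass. UBE2L6, the conjugating enzyme for ISG15, rose by 0.55, and ISG15 itself, at 0.10, did not pass. SAMD9L had a large difference that did not pass (0.61, SE 0.19, adjusted p = 0.0577), with levels of -1.87, -1.43 and -1.44 at 24 h and -0.86, -0.72 and -1.32 at 48 h, where replicate 3 stood near the 24 h arrays.

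Antigen presentation, which loads peptides cut by the immunoproteasome onto MHC molecules, had genes higher at several of its steps. Of 20 measured genes, 10 were higher at 48 h and 0 lower (50%, against 5.26%), with a median difference of 0.26, and 9 or 10 stayed called without any 1 array, ERAP1 being lost without 24 h replicate 1 or 3 or 48 h replicate 1 or 2 (adjusted p from 0.0728 to 0.0775). The list's median level was -0.03, -0.01 and -0.01 at 24 h and 0.22, 0.19 and 0.16 at 48 h. The immunoproteasome subunit PSMB9 read -0.30, -0.25 and -0.18 at 24 h and 0.23, 0.25 and 0.44 at 48 h (difference 0.55, SE 0.07, adjusted p = 0.000456). PSMB8 rose by 0.35 and the activator subunits PSME1 and PSME2 by 0.26 and 0.36. The transporter TAP1 rose by 0.40, the peptide editors TAPBP and TAPBPL by 0.41 and 0.44, the trimming peptidase ERAP1 by 0.39 and the light chain B2M by 0.28. TAPBP was at the control level at 24 h (-0.01, 0.02 and -0.03) and above it on all 48 h arrays (0.40, 0.34 and 0.48). HLA-DMA, a class II editor, rose by 0.48 (SE 0.07), and the class II genes HLA-DMB, HLA-DPA1 and HLA-DPB1 and the class II regulator CIITA did not pass. Against control, 2 members were higher and 4 lower at 24 h (8.69% and 8.02% of all genes). At 48 h 10 were higher and 0 lower (13% and 12.3% of all genes). The ISRE letters were in 8 of the 18 matched promoters of this list (44.4%).

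The integrated stress response is the program that ATF4 drives when amino acids are short or the endoplasmic reticulum is loaded, and it raises amino acid transporters, serine and asparagine synthesis and aminoacyl-tRNA synthetases. Its genes carry a CEBP-ATF response element, searched here as TGATGNAA on both strands. These letters were in 3.67% of all promoters, 2.54% of those of tested genes and 7 of 33 (21.2%) matched for the list. They were also in 1.77% of the promoters of genes called higher and 3.67% of those called lower. The window of ASNS, asparagine synthetase, chr7:97872409-97872608 on the minus strand, is shown because ASNS was among the 12 largest falls, with the match in capitals.
ASNS: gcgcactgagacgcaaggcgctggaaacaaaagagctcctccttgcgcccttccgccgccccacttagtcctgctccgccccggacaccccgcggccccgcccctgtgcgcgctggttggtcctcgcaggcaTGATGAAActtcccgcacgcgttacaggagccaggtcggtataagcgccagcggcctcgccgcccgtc

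Of the 41 gene lists, this one had the largest share of members called lower. Of 37 measured genes, 26 were lower at 48 h than at 24 h (70.3%, against 4.86% of all genes) and 1, ATF5, was higher at 0.35. The median difference was -0.30. The list's median level was -0.38, -0.29 and -0.34 at 24 h and -0.68, -0.71 and -0.68 at 48 h. It was thus already below control at 24 h and lower at 48 h. On the 8 h arrays the median was -0.52, -0.54 and -0.60, below the 24 h levels, so the list did not fall steadily with time. The count of 26 fell to 17 without 24 h replicate 1, without 24 h replicate 3 and without 48 h replicate 2. The 9 members lost at least once were DDIT3, JDP2, NARS1, NUPR1, SARS1, SLC1A5, SLC6A9, SLC7A1 and TRIB3 (adjusted p from 0.0505 to 0.152). Against control, 26 were lower at 24 h, and 32 were lower and 1 higher at 48 h. Of the transporters, SLC7A11, which exchanges glutamate for cystine and is also a target of NRF2, read -0.71, -0.45 and -0.76 at 24 h and -1.64, -1.67 and -1.95 at 48 h (adjusted p = 1.42e-05). The arginine transporter SLC7A1 fell by 0.33, the leucine transporter SLC7A5 by 0.32 and the glutamine transporter SLC1A5 by 0.23. ASNS read -0.54, -0.41 and -0.46 at 24 h and -1.53, -1.40 and -1.40 at 48 h, a fall of 0.97 (SE 0.06). The serine pathway fell as a block, with PSAT1 at -0.84 (SE 0.05), PHGDH at -0.47 and PSPH at -0.29. PSAT1 had levels of -0.56, -0.67 and -0.61 at 24 h and -1.36, -1.50 and -1.49 at 48 h. CHAC1, a glutathione-degrading enzyme often used as a marker of ATF4 activity, stood at -1.25, -1.33 and -1.20 at 24 h and -2.23, -2.36 and -2.14 at 48 h. DDIT4, an mTORC1 inhibitor, fell by 0.49 to 2.21 below control, the stress sensor SESN2 fell by 0.52 (SE 0.06), and the pseudokinase TRIB3 fell by 0.36. DDIT3, the proapoptotic factor CHOP, fell by 0.30, and PCK2, XPOT, EPRS1 and GARS1 by 0.49 to 0.64. ATF4 itself did not pass, at 0.08.

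NRF2 (NFE2L2) raises glutathione and thioredoxin enzymes, aldo-keto reductases and other detoxifying enzymes, and several of its targets are abundant in colon cancer lines. Of 25 measured targets, 16 were lower at 48 h (64%, against 4.86%) and 0 higher, with a median difference of -0.24, and 11 to 15 were called without any 1 array. GCLM, GPX2, PRDX1 and UGDH lost the call without 24 h replicate 1 and at least 1 other array (adjusted p from 0.0506 to 0.0852). The list's median level crossed control, from 0.18, 0.21 and 0.19 at 24 h to -0.11, -0.09 and -0.12 at 48 h. On the 8 h arrays it was 0.36, 0.33 and 0.32, so the 3 treated groups lay in order of time. Against control, 12 were higher and 1 lower at 24 h (8.69% and 8.02% of all genes). At 48 h 2 were higher and 9 lower (13% and 12.3% of all genes). The aldo-keto reductase AKR1B10 read 0.18, 0.24 and 0.26 at 24 h and -1.01, -0.73 and -1.0 at 48 h (difference -1.14, SE 0.09, adjusted p = 7.4e-06). ALDH3A1, an aldehyde dehydrogenase, read 1.06, 0.88 and 1.04 at 24 h and -0.21, -0.19 and 0.12 at 48 h. Its mean stood 0.96 above the control mean at 24 h and at -0.13 from it at 48 h. AKR1C2 read 0.96, 0.95 and 0.62 at 24 h and -0.14, -0.14 and -0.27 at 48 h, and AKR1C3 fell by 0.82. AKR1C1, AKR1C2 and AKR1C3 are near-identical in sequence, so the share of each in these signals is uncertain. AKR1C1 fell by 0.29 (adjusted p = 0.0304), a call lost without 24 h replicate 1 or 3 or 48 h replicate 1 or 3, with adjusted p from 0.062 to 0.136. Thioredoxin genes fell together, with TXN at -0.47, its reductase TXNRD1 at -0.33, SRXN1 at -0.47 and PRDX1 at -0.20. For glutathione, the ligase subunit GCLM fell by 0.45, the reductase GSR by 0.40 and the peroxidase GPX2 by 0.23, and the ligase subunit GCLC did not pass at -0.24. NQO1 fell by 0.23 and the NADPH source ME1 by 0.41, and HMOX1, at -0.10, did not pass. SLC7A11 belongs to this list and to the stress response list and is counted in both. The antioxidant response element, searched as TGAC, any 3 bases and GCA on both strands, was in 2 of the 18 matched promoters of the list and in 3.26% of all promoters. It was in 3.19% of those of tested genes, 3.27% of those of genes called higher and 3.94% of those called lower.

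**Figure D3:**
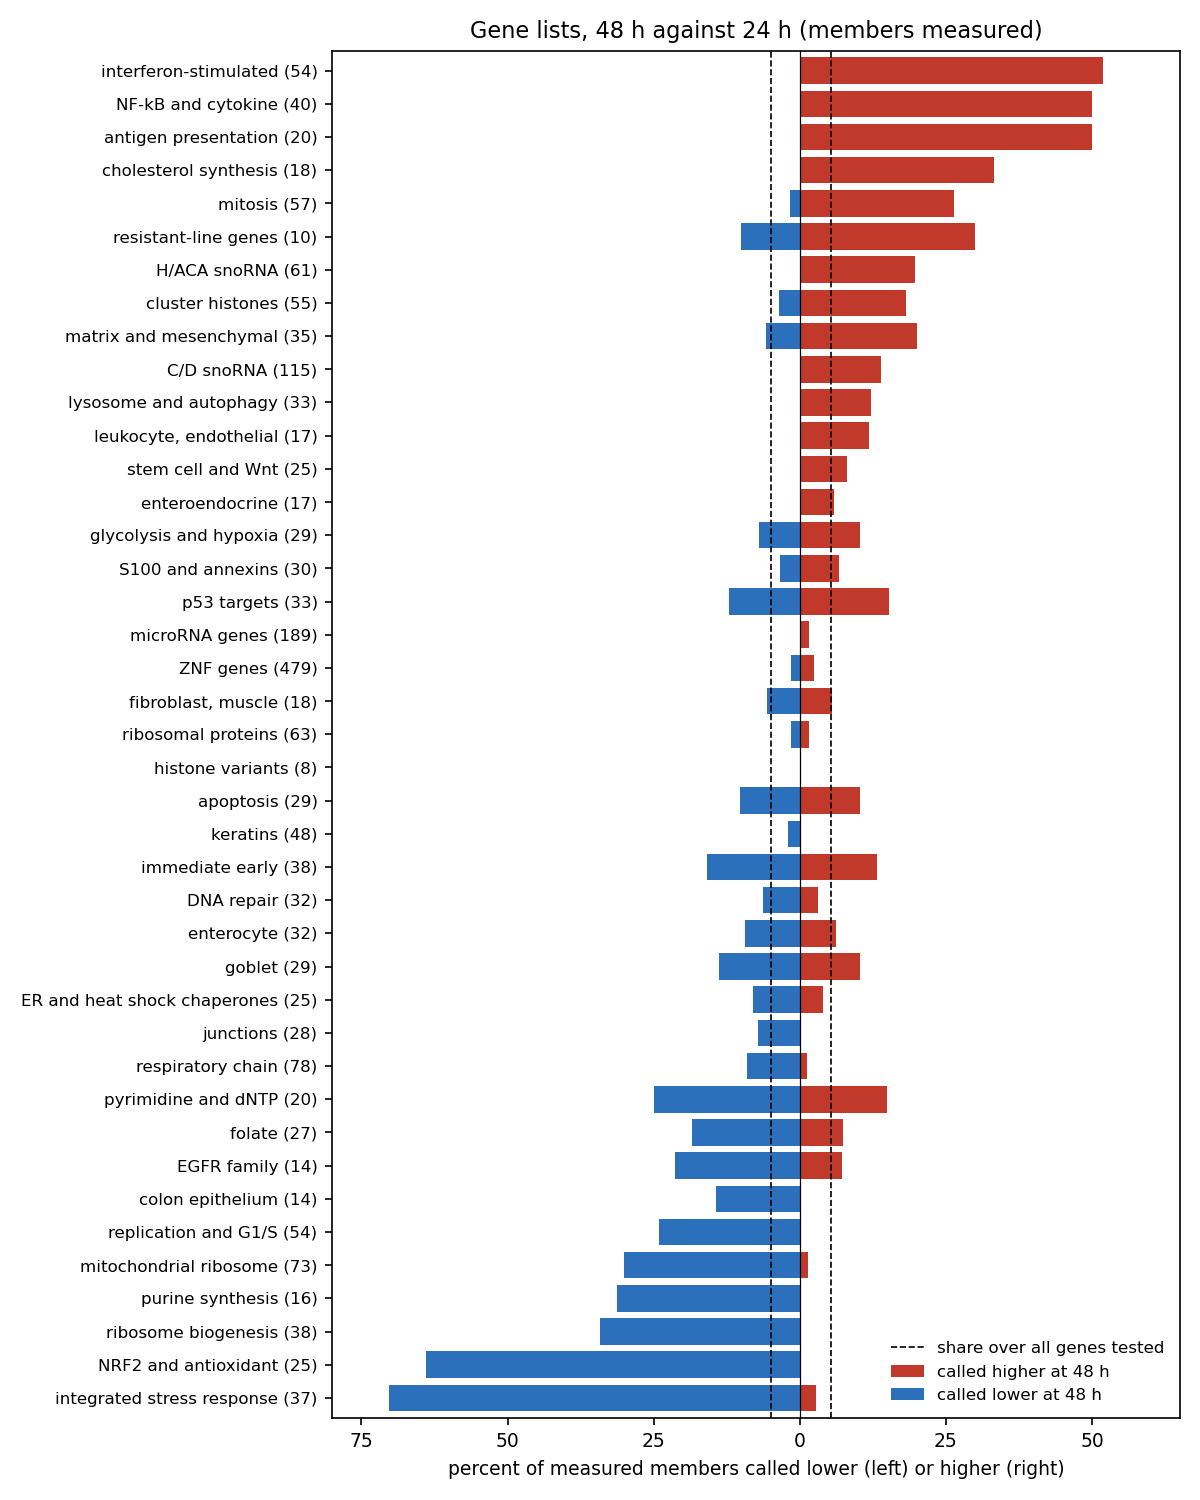
Number of measured members called higher and lower at 48 h than at 24 h, as a percent of each gene list (horizontal axis), with the 5.26% and 4.86% over all genes as reference lines. The interferon, NF-kappaB and antigen presentation lists lie to the higher side, and the stress response and NRF2 lists to the lower side.

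Of 27 measured genes of folate uptake and one-carbon metabolism, 2 were higher and 5 lower (7.41% and 18.5%, against 5.26% and 4.86% of all genes), with a median difference of -0.05. TYMS, thymidylate synthase, was above control on all 6 arrays, at 0.69, 0.74 and 0.72 at 24 h and 0.80, 0.78 and 0.68 at 48 h, and its difference of 0.04 (SE 0.05, adjusted p = 0.776) was within the spread. The reduced folate carrier SLC19A1 differed by 0.14 (adjusted p = 0.171) and GGH, which removes the glutamate tail from folates and methotrexate, by 0.13 (adjusted p = 0.374). FPGS, which adds that tail, read 0.12, -0.01 and 0.19 at 24 h and -0.17, -0.21 and 0.02 at 48 h, with groups that overlapped (difference -0.22, SE 0.07, adjusted p = 0.067). It passed without 24 h replicate 2 (adjusted p = 0.0365) and without 48 h replicate 3 (adjusted p = 0.0116). FOLR1, the folate receptor alpha, went from below control at 24 h (-0.18, -0.07 and -0.25) to above it at 48 h (0.64, 0.53 and 0.59), a rise of 0.76 (SE 0.06, adjusted p = 9.5e-06). The other member called higher, AMT, belongs to the glycine cleavage system and rose by 0.36, a call lost without 24 h replicate 1 or 2 or 48 h replicate 1 or 3 (adjusted p from 0.0506 to 0.0803). Of the 5 lower members, 4 act in mitochondria. MTHFD2 read -0.03, -0.02 and 0.05 at 24 h and -0.55, -0.42 and -0.63 at 48 h (difference -0.54, SE 0.06, adjusted p = 0.000124), the folate transporter SLC25A32 fell by 0.45, MTHFD1L by 0.34 and SHMT2 by 0.27. The mean of MTHFD2 on the 8 h arrays was -0.51, near its 48 h mean of -0.54. The fifth lower member was ATIC (-0.17), the last enzyme of purine synthesis. Its call held without 48 h replicate 2 and was lost without each other array (adjusted p from 0.0634 to 0.0978).

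The purine synthesis list, which also holds the salvage enzyme HPRT1, had 5 of 16 genes lower and 0 higher (31.2% lower, against 4.86%). Its median difference was -0.14, and 5 to 7 were called without any 1 array. With the 6 arrays of 24 h and 48 h fitted alone 3 were called, and IMPDH2 and HPRT1 were lost (adjusted p = 0.0507 and 0.0616). ADSL, adenylosuccinate lyase, read 0.10, 0.09 and 0.09 at 24 h and -0.32, -0.29 and -0.34 at 48 h. PAICS, GMPS, IMPDH2 and HPRT1 fell by 0.29 to 0.36. Against control, 6 purine genes were higher and 0 lower at 24 h (8.69% and 8.02% of all genes). At 48 h 3 were higher and 2 lower, near the shares over all genes (13% and 12.3%). Pyrimidine and deoxynucleotide supply had 3 of 20 higher and 5 lower (15% and 25%, against 5.26% and 4.86%). The count of 3 was 1 without 24 h replicate 1. The count of 5 was 3 without 24 h replicate 1, and 2 without 24 h replicate 3 or 48 h replicate 1. CDA, cytidine deaminase of the salvage route, read 0.79, 0.84 and 0.80 at 24 h and 1.92, 1.80 and 1.55 at 48 h, the largest change of these lists (0.94, SE 0.08, adjusted p = 1.62e-05).

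DNA replication and G1/S genes, many of them E2F targets, stayed above control and came part of the way down. Of 54, 45 were higher than control at 24 h and 37 at 48 h, and between these times 13 fell and 0 rose (24.1%, against 4.86%). The median difference was -0.11, with list medians of 0.40, 0.42 and 0.44 at 24 h and 0.38, 0.34 and 0.30 at 48 h. The count of 13 was 7 without 24 h replicate 2, 8 without 24 h replicate 3 and 8 without 48 h replicate 2. ORC1, the largest subunit of the origin recognition complex, read 0.95, 0.96 and 0.95 at 24 h and 0.36, 0.50 and 0.45 at 48 h (difference -0.52, SE 0.05, adjusted p = 2.41e-05). The cyclins CCNE1 and CCNE2, which carry cells into S phase, fell by 0.41 and 0.31 and ended near control, at -0.01, -0.04 and -0.27 and at -0.05, 0.02 and -0.08. The kinase CDC7 and its activator DBF4 fell by 0.37 and 0.32, and the polymerase-primase genes POLA1 and PRIM2 by 0.36 and 0.34. The calls of DBF4, POLA1 and PRIM2 were lost without 24 h replicate 2 and other arrays (adjusted p from 0.0574 to 0.124).

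Mitotic genes are expressed late in G2 through the DREAM and MuvB complexes, whose target promoters hold the cell cycle homology region, searched here as TTTGAA on both strands. These 6 letters were in 15.4% of all promoters, 11.9% of those of tested genes and 33 of 48 (68.8%) matched for the mitosis list, and in 7 of 13 (53.8%) for its members called in either direction. Over all matched genes, those called higher held the letters in 9.67% and those called lower in 11%. The window of CCNB2, cyclin B2, chr15:59104946-59105145 on the plus strand, is shown with its match in capitals.
CCNB2: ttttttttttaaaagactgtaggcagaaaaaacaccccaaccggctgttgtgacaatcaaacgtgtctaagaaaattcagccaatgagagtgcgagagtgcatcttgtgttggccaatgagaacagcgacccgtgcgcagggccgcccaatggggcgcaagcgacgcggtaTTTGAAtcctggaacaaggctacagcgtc

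Of 57 mitotic genes, 15 were higher at 48 h and 1, NCAPG, was lower, a call lost without 24 h replicate 2 or 3 or 48 h replicate 3, with adjusted p from 0.0585 to 0.0772 (26.3% higher, against 5.26%), with a median difference of 0.12. The list's median level rose above 0 on 48 h replicates 1 and 2, at 0.16 and 0.10, and was -0.08 on replicate 3, inside the 24 h values of -0.09, 0.01 and -0.09. Without 48 h replicate 3 the count was 24, and without 24 h replicate 1 or 48 h replicate 2 it was 9. KIF20A, a kinesin of the central spindle, read -1.19, -0.99 and -1.16 at 24 h and -0.15, -0.19 and -0.41 at 48 h (difference 0.86, SE 0.08, adjusted p = 3.61e-05). CDC25B, the phosphatase that starts CDK1 activation, went from -0.03, -0.15 and 0.00 to 0.46, 0.43 and 0.60. PTTG1, securin, rose by 0.46 (SE 0.06) to just above control, and CCNB2 read -0.32, -0.32 and -0.20 at 24 h and 0.07, 0.08 and -0.03 at 48 h. CCNB1, UBE2C, NEK2 and ESPL1 rose by 0.33 to 0.36. The kinases CDK1 (0.002), AURKA (-0.06) and PLK1 (0.07) did not pass, nor did the proliferation marker MKI67 (0.12, adjusted p = 0.668). Against control, 8 mitotic genes were higher and 18 lower at 24 h (8.69% and 8.02% of all genes). At 48 h 16 were higher and 6 lower (13% and 12.3% of all genes).

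Cluster histone genes supply nucleosomes in S phase, and their RNAs lack a poly(A) tail when normally processed. They stayed low as a group, with 49 of 55 below control at 24 h and 45 at 48 h, list medians between -1.04 and -0.90 at 24 h and between -0.98 and -0.87 at 48 h, and a median difference of 0.02. Within the list, 10 were higher at 48 h and 2 lower (18.2% and 3.64%, against 5.26% and 4.86%). The 2 were 4 without 48 h replicate 3, 3 without 24 h replicate 2 and 1 without each other array. H2BC21 read -1.22, -1.05 and -1.22 at 24 h and -0.10, -0.21 and -0.33 at 48 h, H2BC12 went from -0.98, -0.72 and -0.99 to 0.15, 0.11 and -0.15, and H4C8 from -0.774, -0.999 and -1.065 to 0.36, -0.06 and -0.30. H4C4 (-0.48) and H4C13 (-0.28) went the other way, and the call of H4C13 was lost without 24 h replicate 1 or 3 or 48 h replicate 1 or 2 (adjusted p from 0.0875 to 0.174). The genes of a histone family are near-identical copies, so which copy gave the signal is uncertain. All 8 histone variant genes measured failed the test in both directions.

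Some genes of ribosome production fell. Of 38 genes of rRNA transcription, processing and assembly, 13 were lower and 0 higher (34.2%, against 4.86%), with a median difference of -0.19 and 10 to 17 called without any 1 array. Their median level was -0.07, -0.07 and -0.02 at 24 h and -0.26, -0.27 and -0.28 at 48 h. LYAR, a nucleolar protein, fell by 0.47 (SE 0.08), the chaperone NPM3 by 0.44, the assembly factor MRTO4 by 0.38 and the RNA polymerase I subunit POLR1E by 0.34. MRTO4 stood at 0.20, 0.07 and 0.29 at 24 h and at -0.20, -0.22 and -0.16 at 48 h. Nucleolin (NCL), fibrillarin (FBL) and dyskerin (DKC1) fell by 0.28 to 0.34. Against control, 3 genes of the list were higher and 7 lower at 24 h (8.69% and 8.02% of all genes). At 48 h 0 were higher and 22 lower (13% and 12.3% of all genes). Genes of the cytosolic ribosomal proteins were nearly still, with 1 higher and 1 lower of 63 and a median of -0.05. That is 1.59% each way, against 5.26% and 4.86% of all genes. MYC, which drives many of these genes, was 0.21 lower (SE 0.06, adjusted p = 0.0363), with levels of -0.35, -0.43 and -0.35 at 24 h and -0.60, -0.65 and -0.52 at 48 h. The groups of MYC did not overlap, but the call was lost without 24 h replicate 1 or 3 or 48 h replicate 1 or 2, with adjusted p from 0.0977 to 0.129.

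Genes of the mitochondrial ribosome had 22 of 73 lower and 1, MRPL34, higher (30.1% lower, against 4.86%), with a median of -0.11. The count of 22 was 14 without 24 h replicate 1, and MRPL34 was lost without 24 h replicate 3 or 48 h replicate 1 (adjusted p = 0.05 and 0.0506). MRPL19 read 0.01, -0.01 and -0.06 at 24 h and -0.43, -0.46 and -0.72 at 48 h, and MRPS10 read 0.05, 0.11 and 0.06 at 24 h and -0.33, -0.35 and -0.39 at 48 h. Respiratory chain genes had 7 lower and 1 higher of 78 (8.97% and 1.28%, against 4.86% and 5.26%), and the count of 7 was 0 without 24 h replicate 1, 2 without 24 h replicate 3 and 4 without 48 h replicate 2. NDUFA2, a complex I subunit, was the one higher (0.36, SE 0.05, adjusted p = 0.000778).

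Small nucleolar RNAs guide methylation (box C/D) and pseudouridylation (box H/ACA) of rRNA and are mostly cut from introns of host genes. Of 115 box C/D RNAs 16 were higher and 0 lower, and of 61 box H/ACA RNAs 12 were higher and 0 lower (13.9% and 19.7%, against 5.26%), with median differences of 0.05 and 0.13. SNORD46 read -0.94, -0.51 and -1.22 at 24 h and -0.02, -0.09 and -0.37 at 48 h, and SNORA3A read -0.96, -0.59 and -1.28 at 24 h and -0.12, -0.32 and -0.35 at 48 h. In both, 24 h replicate 2 stood nearest to the 48 h arrays. The same array was apart in SNORD41, with -1.07, -0.11 and -1.44 at 24 h against 0.13, 0.20 and -0.11 at 48 h, where the groups met. SNORD41 was called at 0.94 (SE 0.24, adjusted p = 0.0265) and was lost on leaving out 24 h replicate 1 or 3 or 48 h replicate 1 or 2 (adjusted p from 0.0714 to 0.104). SNORA22 had a difference as large as 1.22 that did not pass (SE 0.43, adjusted p = 0.0973), with 24 h levels of -1.68, -0.12 and -2.42. The counts depended on single arrays. For box C/D RNAs the count was 9 without 24 h replicate 1, 6 without 24 h replicate 3, 8 and 7 without 48 h replicates 1 and 2 and 29 without 48 h replicate 3. For H/ACA RNAs it was 6 and 4 without 24 h replicates 1 and 3, and 3 and 4 without 48 h replicates 1 and 2. With the 6 arrays of 24 h and 48 h fitted alone, 6 box C/D and 1 box H/ACA RNAs were called higher. SNORD46 and SNORA3A lost the call in that fit (adjusted p = 0.0528 and 0.0502).

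Cholesterol synthesis, which SREBP2 raises when sterols are low, had 6 of 18 genes higher and 0 lower (33.3%, against 5.26%), a median of 0.22, and 4 to 8 called without any 1 array. Of the 18, 12 had 48 h levels all above their 24 h levels, against 11.5% of all genes. HMGCS1, the synthase before HMG-CoA reductase, read -0.07, 0.11 and -0.02 at 24 h and 0.54, 0.50 and 0.44 at 48 h (difference 0.48, SE 0.07, adjusted p = 0.000881). INSIG1, the sterol-sensing retention protein, went from -0.39, -0.33 and -0.47 to 0.21, 0.23 and 0.04. IDI1, CYP51A1 and SQLE rose by 0.34 to 0.35 and MSMO1 by 0.53. MSMO1 lost the call without 24 h replicate 3 or 48 h replicate 1 or 2 and CYP51A1 without these and 24 h replicate 1 (adjusted p from 0.0559 to 0.128). SREBF2 itself did not pass, at 0.12. The sterol regulatory element, searched as TCAC, any base and CCAC on both strands, was in 1 of the 17 matched promoters of the list. Of the 5 matched members called, 0 held it. It was in 1.15% of all promoters, 1.14% of those of tested genes, 1.91% of those of genes called higher and 1.22% of those called lower.

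Growth factor signalling genes went both ways. Genes of the EGFR and ERK route that fell included EREG at -0.55 (SE 0.05), HBEGF at -0.35 (SE 0.06), the receptor inhibitor ERRFI1 at -0.43 (SE 0.04) and the ERK phosphatase DUSP6 at -0.54 (SE 0.04). EREG, epiregulin, read -0.07, -0.07 and -0.04 at 24 h and -0.57, -0.69 and -0.57 at 48 h. Other ERK feedback genes rose, SPRY1 by 0.36 (SE 0.07) and SPRED2 by 0.23, the latter lost without 24 h replicate 1 or 3 or 48 h replicate 2 (adjusted p from 0.0588 to 0.0899). In the EGFR list 3 of 14 were lower (21.4%, against 4.86%), with ERBB3 higher at 0.21 (lost without 24 h replicate 1 or 3 or 48 h replicate 1 or 3, adjusted p from 0.0638 to 0.135), and in the immediate early list 6 of 38 were lower and 5 higher (15.8% and 13.2%). The count of 6 was 3 without 24 h replicate 1 or 3 or 48 h replicate 2, and the count of 5 was 3 without 24 h replicate 1 or 3.

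Targets of p53 were called in both directions, with 5 of 33 higher and 4 lower (15.2% and 12.1%, against 5.26% and 4.86%). TP53INP1 rose by 0.80 (SE 0.11), from -0.36, -0.14 and -0.37 to 0.77, 0.58 and 0.18, and CCNG2 by 0.37, and SESN2, MDM2 and GDF15 fell by 0.30 to 0.52. PLK2 fell by 0.26, a call lost without 24 h replicate 3 (adjusted p = 0.063). CDKN1A, the p21 inhibitor of cyclin-dependent kinases, rose by 0.27 (SE 0.06, adjusted p = 0.0182), and the call was lost without 24 h replicate 1 or 2 (adjusted p = 0.0572 and 0.0683). The count of 5 higher was 3 without 24 h replicate 1. Apoptosis genes gave 3 higher and 3 lower of 29 (10.3% each way, against 5.26% and 4.86%), and CASP6 fell by 0.26 (SE 0.05). The 3 higher were 5 without 48 h replicate 3, 0 without 24 h replicate 3 and 1 without 24 h or 48 h replicate 1, and the 3 lower were 1 without 24 h replicate 1. DNA repair genes gave 1 higher and 2 lower of 32 (3.12% and 6.25%, near the shares over all genes), with FANCE 0.34 lower, and 19 of them stood above control at 24 h and 17 at 48 h. Heat shock and unfolded protein genes gave 1 higher (HSPB1, 0.32) and 2 lower of 25 (4% and 8%).

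Markers of intestinal differentiation changed singly. Goblet genes had 3 higher and 4 lower of 29 (10.3% and 13.8%, against 5.26% and 4.86%), and the 3 were 1 without 24 h replicate 1. MUC2, the secreted gel mucin, stood at 0.19, 0.18 and 0.16 at 24 h and 0.18, 0.17 and 0.29 at 48 h, with no difference beyond the spread (0.04, adjusted p = 0.775). SPDEF, a transcription factor of goblet maturation, fell by 0.55 (SE 0.10), the goblet stress sensor ERN2 fell by 0.42 (SE 0.07), and the membrane mucin MUC1 rose by 0.41 (SE 0.08). Enterocyte genes had 2 higher and 3 lower of 32 (6.25% and 9.38%), the 3 being 1 without 24 h replicate 1 or 3 or 48 h replicate 1 or 2, with CEACAM5 going from 0.72, 0.81 and 0.77 to 0.19, 0.12 and 0.07 and the glucose transporter SLC5A1 rising by 0.44 (SE 0.06). LGR5, the crypt stem cell receptor, rose by 0.64 (SE 0.10), from 0.10, 0.30 and 0.05 to 0.94, 0.83 and 0.59. On the 8 h arrays LGR5 read 0.95, 0.76 and 0.77, so the 48 h levels were near those at 8 h. LGR5 was 1 of the 2 called of 25 stem and Wnt genes (8%, against 5.26%), the other being CCND1 (0.26). Junction genes had 2 of 28 lower (7.14%, against 4.86%), with the pore-forming claudin CLDN2 at -0.43 (SE 0.06), keratins had 1 of 48 lower (2.08%) and enteroendocrine genes 1 of 17 higher (5.88%).

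Matrix and mesenchymal genes had 7 higher and 2 lower of 35 (20% higher, against 5.26%), a count of 7 that was 4 without 24 h replicate 1 or 3 or 48 h replicate 1 or 2. CAV1, caveolin-1, was already far above control at 24 h, at 1.51, 1.62 and 1.42, and reached 2.29, 2.30 and 1.98 at 48 h (difference 0.68, SE 0.10, adjusted p = 0.00102). TGFB2 rose by 0.53 (SE 0.07) and the integrin ITGB8 by 0.52 (SE 0.10), while vimentin (VIM) fell by 0.22, a call lost without 24 h replicate 1 or 3 or 48 h replicate 1 (adjusted p from 0.0782 to 0.093). Lysosomal genes had 4 higher and 0 lower of 33 (12.1% higher, against 5.26%), and 7 higher without 48 h replicate 3. The 4 were LAPTM5 (0.83), CTSS (0.76), GUSB (0.30) and TPP1 (0.28). LAPTM5, a lysosomal membrane protein best known from leukocytes, read 1.56, 1.69 and 1.46 at 24 h and 2.59, 2.31 and 2.30 at 48 h. CD4, also known from leukocytes, was called higher too, and PTPRC, CD3D and PECAM1 did not pass. CD68 was called higher, a call lost without 48 h replicate 1 or 3 or any of the 24 h arrays. The samples are cultures of a single cell line, and what these markers mean in it was not tested. Among glycolytic and hypoxia genes 3 rose and 2 fell of 29 (10.3% and 6.9%, against 5.26% and 4.86%), and 5 fell without 48 h replicate 3 and 1 without 24 h replicate 1 or 3 or 48 h replicate 1 or 2. Those called included ALDOC at 0.69 (SE 0.05) and ENO2 at 0.54 (SE 0.05) higher and PDK1 0.38 lower. Of the S100 and annexin genes, S100A3 (0.56) and ANXA6 (0.47) were higher and ANXA10 lower, of 30 (6.67% and 3.33%). Of 10 genes linked to resistance in HT29 cells 3 were higher (30%, against 5.26%), CAV1, ENO2 and PRKCA (0.41), and AKR1C1 was lower. Zinc finger genes had 12 higher and 7 lower of 479 (2.51% and 1.46%, against 5.26% and 4.86%). The 12 were 34 without 48 h replicate 3, 6 without 24 h replicate 1 and 7 without 48 h replicate 1, and the 7 were 1 to 4 without any array other than 48 h replicate 3. MicroRNA genes had 3 higher of 189 (1.59%), 5 without 48 h replicate 3 and 1 without 24 h replicate 3 or 48 h replicate 1.

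**Figure D4:**
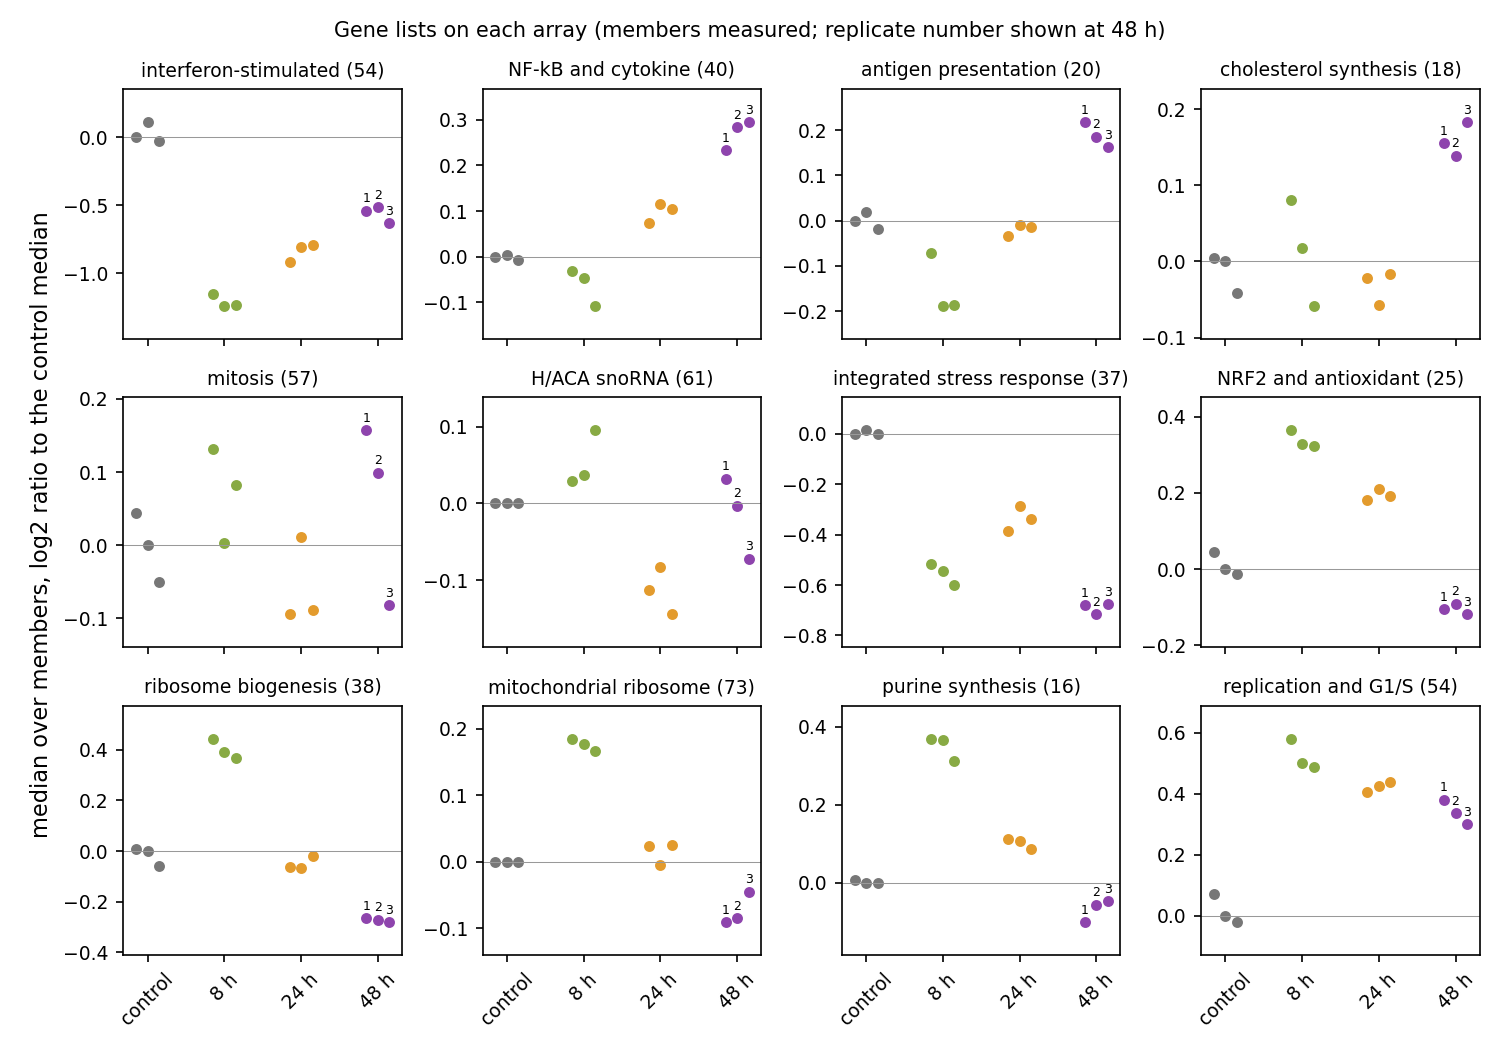
Median level of the members (log2 ratio to the control median, vertical axis) of selected gene lists on each of the 12 arrays, by time (horizontal axis). The NRF2 list goes from between 0.18 and 0.21 at 24 h to between -0.12 and -0.09 at 48 h, and the interferon list goes up towards control without reaching it.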

How the data were processed

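Arrays were Affymetrix HuGene 1.0 ST, per the labels. The authors deposited log2 values, 1 per probe set and array; per the submitters' processing notes they used RMA and hg19, both without a version. The control median is exactly 0 in all 28869 probe sets of the deposited values, so they are log2 ratios. The centring step and the log base are not stated in the sources used here, and base 2 was taken from RMA. Of the probe sets, 19310 named 1 gene, 1752 several and 7807 none, by the platform annotation. A gene's value was the mean of its single-gene probe sets (685 of the 18377 genes had several). The 12 arrays in 4 groups of 3, grouped by their titles, entered a limma 3.58.1 fit in R 4.3.3 with a mean per group (8 residual and 4.71 prior degrees of freedom), two-sided, Benjamini-Hochberg adjusted over all genes. The script was tested on simulated data. The number of arrays limits the precision, since the values carry no depth.

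Genes were named by a rule, namely, of the called genes with groups that do not overlap, the 12 that rose most and the 12 that fell most, up to 4 called members of each of 41 lists (or the 2 members of smallest p where fewer than 2 were called), and fixed genes of folate use and the cell cycle. In the text the called members of the main lists are also given, and some examples are left out for length. The comparison, lists and rule were chosen with earlier results of these data known. Replicate numbers were not used as pairs in the main fit. The residuals of same-numbered 24 h and 48 h arrays correlated at -0.452, 0.472 and 0.427. These correlations cannot show whether the numbers pair the arrays, since residuals around a mean of 3 arrays are tied to each other. Alternatives were fits of the 6 arrays alone, a replicate block, array weights, weights per group, centring each array, a robust prior, each probe set alone, stricter thresholds, and leaving out each array. Figures used matplotlib 3.10.9, and tables pandas 2.3.3 and numpy 2.4.6 in Python 3.11.15, and promoters came from RefSeq, GRCh38.p14.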

Additional observations from a re-analysis of the deposited data

How the results depend on the processing

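Against 966 genes higher and 894 lower, the 6 arrays alone called 561 and 461, and with the replicate number as a block, chosen after seeing the data, 680 and 556. Array weights, which gave 48 h replicate 3 a weight of 0.199 and replicate 2 of 6.52, called 2769 and 3132. The stricter thresholds left 456 and 363 (adjusted p under 0.01), 103 and 33 (at least 1.5-fold) and 7 and 6 (at least 2-fold). Leaving out each array in turn gave 567 to 1201 higher and 500 to 948 lower. Within 1.5 times of the counts were the replicate block on all 12 arrays (1107 and 1012), weights per group, centring each array (1025 and 800), the robust prior and both other ways of taking probe sets. Whether the replicate numbers pair the arrays was not settled. Not every 24 h array correlated best with the 48 h array of its number, and the block ended the call of 0 named genes.

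Calls shared with the fit of all 12 arrays had opposite signs in 0 genes under each of 12 alternatives. The alternatives reuse the same arrays, and several leave a gene's difference unchanged, so this agreement is no test of the signs. The 6 arrays alone kept 1004 of the 1860 calls (54%), and 98.2% of the calls they made were shared. That fit ended the call of 34 named genes. Of 147 named genes called, 101 kept the call under all 12 alternatives and 46 lost it under at least 1, and 7 named genes that were not called passed under at least 1. MUC2, at 0.037 and not called, turned to -0.007 with array weights and to -0.001 without 48 h replicate 3, within a range of -0.001 to 0.061 over the 6 fits that left out an array. Centring each array shifted the median difference by 0.00762. The cause of these changes was not tested. Since levels were removed by the centring, signal over background is unknown, and 3 arrays per group limit the precision.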

Other observations

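Families below were picked after their values were seen, so their counts are descriptions only. The aminoacyl-tRNA synthetases charge tRNAs with amino acids, and those of the cytosol fell almost throughout. Of 16 measured, 13 were lower at 48 h than at 24 h and 0 higher (81.2% lower, against 4.86% of all genes), with a median difference of -0.26 beside -0.0067 over all genes. The family's median level was -0.12, -0.14 and -0.14 at 24 h and -0.43, -0.44 and -0.45 at 48 h, so the groups did not overlap. On the 8 h arrays it was -0.21, -0.33 and -0.32, between the levels of the other treated groups. GARS1 fell by 0.51 and TARS1 by 0.50, and RARS1, the smallest of the 13 falls, by 0.17. Several of these genes are also in the stress response list. The mitochondrial synthetases had 5 lower and 0 higher of 16 (31.2% lower), led by FARS2 at -0.56 and WARS2 at -0.51.

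Mitochondrial enzymes of acyl-CoA and branched-chain breakdown had 11 lower and 0 higher of 34 (32.4% lower, against 4.86%), with a median difference of -0.13. The family's median level was -0.10, -0.09 and -0.05 at 24 h and -0.24, -0.29 and -0.30 at 48 h. ACSM3 (-0.84), the fatty acid reductase DECR1 (-0.63), the succinyl-CoA ligase SUCLG2 (-0.61) and the propionyl-CoA carboxylase subunit PCCB (-0.59) fell most. Complement genes had 4 higher of 12 (33.3%, against 5.26%), where C3 and CFB were joined by the cell surface regulators CD46 (0.22) and CD55 (0.19). The proteasome genes split, with the inducible PSMB9 and PSMB8 higher and 5 subunits lower of 36 (5.56% and 13.9%, against 5.26% and 4.86%), among them PSMA3 at -0.47 and PSMB1 at -0.35.

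By gene class, 28 of 175 small nucleolar RNA genes were higher and 0 lower (16% called). Many of these calls depended on single arrays, as given above. Protein-coding genes had 892 higher and 873 lower of 16866 (10.5% called). Long noncoding RNA genes had 27 higher and 5 lower of 633 (5.06% called).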
